A study of Mus musculus with 15 samples.

Results

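Fibroblast growth factor (FGF) signalling was followed through 10 genes in mouse dental mesenchymal cells (mDMCs): the ligands Fgf3 and Fgf10, the receptors Fgfr1 and Fgfr2, the feedback inhibitors Spry1, Spry2, Spry4 and Dusp6, and the transcription factors Etv4 and Etv5. The genes were chosen by name, with earlier results of these data known, and all 10 had a row among the 12089 transcripts of the expression table. mDMCs were single cells released with trypsin from the mesenchyme of mandibular first molars of ICR embryos at embryonic day 14.5, after dispase had been used to take off the epithelium. RNA was sequenced from freshly isolated mDMCs (0 h, 3 libraries), from mDMCs grown in medium with fetal bovine serum for 12 h (2 libraries), 24 h (3), 36 h (3) and 48 h (3), and from dental mesenchymal tissue (1 library). No genotype differed between the groups. The labels do not say whether replicates came from separate dissections, so the p-values measure only the spread between these samples, which may be technical.

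FGF ligands bind receptor tyrosine kinases together with heparan sulphate and start the Ras and MAP kinase cascade. The kinase ERK at its end leads to transcription of Etv4 and Etv5 and of the inhibitors of the same cascade, the Sprouty proteins and the ERK phosphatase Dusp6, so that these genes serve as common readouts of the pathway. In the tooth germ, Fgf3 and Fgf10 are made by the mesenchyme and act on the dental epithelium, while epithelial FGFs act on the mesenchyme. Which cells of these samples held the Fgf3 RNA was not tested. The mDMCs of this study were grown in serum, which itself holds growth factors, after the epithelium had been taken off, though epithelial markers were still detected.

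The 10 genes did not move as one. After 48 h of culture 6 were lower than at 0 h (Fgf3, Fgfr1, Fgfr2, Spry1, Dusp6 and Etv5), 2 were higher (Fgf10 and Spry2), and Spry4 and Etv4 did not pass the test. Of all transcripts tested, 33.5% were lower and 36.5% higher at that time. With an unadjusted p below 0.05 and a fold above 2 as the rule, 4 of the genes were lower and 0 higher, against 15.9% and 16.2% of all transcripts. The changes opposed each other within the ligands and within the Sprouty genes: Fgf3 fell to scores of 0 to 3 while Fgf10 rose 1.81-fold, and Spry1 fell 3.38-fold while Spry2 rose 1.58-fold. Values were normalized scores without a unit, compared as log2(score + 1) with limma, and a gene was called at a Benjamini-Hochberg adjusted p below 0.05 over all 12079 transcripts tested.

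Each row is labelled by 1 transcript, often a short one. Whether its score covers that transcript or the whole gene is not given in the sources used here, so no level was compared between genes. Every library had the same median score, 721, and the same top score, 127101. The number of reads is unknown, and the precision is known only from replicates.

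**Figure D1:**
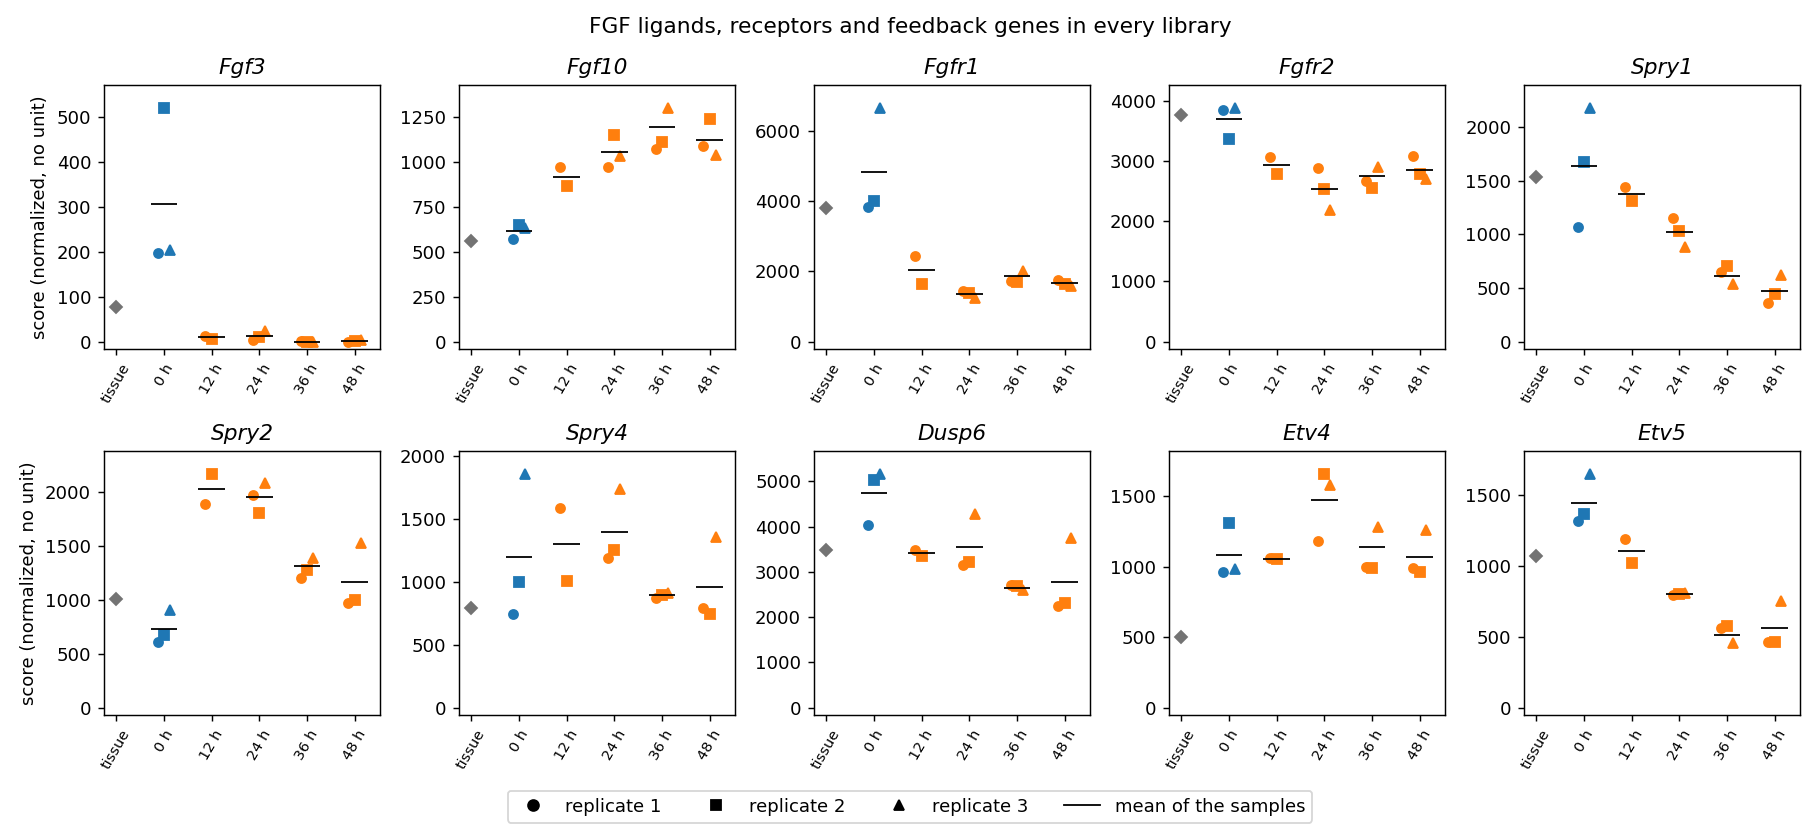
Score (y axis, normalized, no unit) of each of the 10 genes in the tissue (grey diamond), at 0 h (blue) and after 12, 24, 36 and 48 h of culture (orange), 1 point a library and a line at the mean of the samples. Fgf3 lies between 197 and 519 at 0 h and at most at 23 in culture, and Spry2 lies higher in every cultured library than in any at 0 h.

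Several libraries stood apart. Replicates 1 and 2 at 36 h differed by a root mean square of 0.083 on the log2 scale, against 0.208 to 0.409 in the 12 other replicate pairs. With the scores read as counts, which they are not, the median chi-square ratio was 1.19 against 3.54 to 21.9. The pair was thus far closer than any other and was counted as 1 sample, their mean. The comparisons thus rest on 13 samples, with 2 at 36 h. Epithelial markers summed to 17198 in replicate 1 at 0 h, and to 2191 and 2055 in replicates 2 and 3. The immediate-early gene Fos, which is induced within minutes by handling or growth factors, was at 16498, 40642 and 127101 in these libraries. Replicate 3 at 0 h was the highest of its group for 7 of the 10 FGF genes and replicate 1 the lowest for 9. The share of all transcripts with this order was not taken, and replicates 1 and 3 at 0 h were the replicate pair that differed most, by 0.409. Results with 0 h are therefore also given without these libraries where their call changed.

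Fgf3 is a secreted ligand made by dental mesenchyme, and its row was labelled by a protein-coding transcript of 599 bases in 4 exons (GRCm38, chr7:144838083-144842719, plus strand). Its scores were 197, 519 and 204 at 0 h and 13 and 6 at 12 h. They were 4, 11 and 23 after 24 h, 1, 0 and 0 after 36 h and 0, 2 and 3 after 48 h. Every cultured library was below every library at 0 h. The log2 change from 0 h was -4.80 ± 0.79 (SE) at 12 h, with an adjusted p of 0.000297 in limma, and -6.92 ± 0.70 at 48 h, with an adjusted p of 3.6e-06. At 24 h the change was -4.61 ± 0.70. Since scores near 0 carry these changes, their size depended on the processing and on the libraries used at every time. Over the alternatives the change ran from -5.72 to -3.28 at 12 h, from -5.53 to -3.17 at 24 h and from -8.31 to -3.70 at 48 h. At 36 h, where 2 libraries are listed at 0, it was -7.82 on this scale and is no measure of size.

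Fgf10, the ligand of mesenchyme that signals through the epithelial form of Fgfr2, moved the other way. Its row was labelled by a processed transcript of 685 bases in 5 exons (chr13:118669791-118789334, plus strand), a type with no annotated reading frame. Its scores were 572, 649 and 633 at 0 h and 970 and 867 at 12 h. They were 974, 1153 and 1032 after 24 h, 1070, 1112 and 1299 after 36 h and 1088, 1237 and 1039 after 48 h. The cultured libraries lay above the range of 0 h without overlap. The log2 change was 0.57 ± 0.12 at 12 h (limma adjusted p = 0.00165), 0.77 ± 0.11 at 24 h, 0.95 ± 0.12 at 36 h and 0.86 ± 0.11 at 48 h (adjusted p = 1.95e-05). The rise was in place by 12 h, and none of the later steps between neighbouring times passed the test.

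Fgfr1, the receptor that mesenchymal cells use for most FGFs, was listed by a protein-coding transcript of 453 bases in 4 exons (chr8:25513654-25555568, plus strand). Its scores were 3841, 4006 and 6634 at 0 h and 2422 and 1635 at 12 h. They were 1434, 1375 and 1231 after 24 h, 1713, 1696 and 2001 after 36 h and 1764, 1652 and 1595 after 48 h. No cultured library reached the lowest one at 0 h. The fall was 2.35-fold at 12 h (log2 change -1.23 ± 0.22, limma adjusted p = 0.000531) and 2.80-fold at 48 h (-1.49 ± 0.20, adjusted p = 3.08e-05), and the call held at each time under every alternative run.

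Fgfr2, whose splice forms divide between epithelium and mesenchyme, fell as well. The row was labelled by a protein-coding transcript of 2425 bases in 7 exons (chr7:130162451-133123350, minus strand), and the score does not tell which form was present. Its scores were 3848, 3366 and 3874 at 0 h and 3058 and 2791 at 12 h. They were 2885, 2534 and 2191 after 24 h, 2663, 2554 and 2897 after 36 h and 3082, 2782 and 2693 after 48 h. The groups did not overlap, but the fall was small, with log2 changes of -0.34 ± 0.12 at 12 h (limma adjusted p = 0.0328), -0.55 ± 0.11 at 24 h, -0.42 ± 0.12 at 36 h and -0.37 ± 0.11 at 48 h (adjusted p = 0.0087). The call at 12 h was lost without 0 h replicate 1 (adjusted p = 0.0797), 0 h replicate 3 (0.0777), 12 h replicate 1 (0.0536) or 12 h replicate 2 (0.174). At 36 h it was lost without the joined replicates 1 and 2 (0.0821). Without replicates 1 and 3 at 0 h together, which leaves 1 library there that is assumed to vary like the other groups, the calls were lost at 12 h (-0.20, adjusted p = 0.341), 36 h (-0.29, 0.162) and 48 h (-0.24, 0.209).

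Spry1, a Sprouty inhibitor that acts between the receptor and Ras, fell over the course of culture. It lies at chr3:37639947-37644598 on the plus strand, with a listed transcript of 3 exons and 2451 bases. Its scores were 1070, 1671 and 2174 at 0 h and 1439 and 1306 at 12 h. They were 1150, 1031 and 878 after 24 h, 646, 706 and 538 after 36 h and 363, 446 and 617 after 48 h. The libraries of 12 h and 24 h overlapped those of 0 h, and the libraries of 36 h and 48 h lay below them. The log2 change was -0.20 ± 0.27 at 12 h (limma adjusted p = 0.566), -0.63 ± 0.24 at 24 h (0.0384), -1.38 ± 0.27 at 36 h (0.000849) and -1.76 ± 0.24 at 48 h (4.78e-05). The call at 24 h was lost without 0 h replicate 2 (adjusted p = 0.0974), 0 h replicate 3 (-0.40, 0.164), 24 h replicate 2 (0.0747) or 24 h replicate 3 (0.119). Between 12 h and 48 h, a comparison that does not use the libraries of 0 h, Spry1 fell by 1.56 on the log2 scale (adjusted p = 0.00109).

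Spry2, a second Sprouty inhibitor of the same cascade, rose early and then partly returned. Its listed transcript has 2 exons and 2087 bases at chr14:105891947-105896819 on the minus strand. The scores were 611, 671 and 906 at 0 h and 1886 and 2161 at 12 h. They were 1968, 1803 and 2083 after 24 h, 1200, 1277 and 1389 after 36 h and 973, 996 and 1527 after 48 h. All cultured libraries were above all libraries at 0 h. The log2 change was 1.49 ± 0.20 at 12 h (2.81-fold, limma adjusted p = 6.99e-05), 1.44 ± 0.18 at 24 h, 0.87 ± 0.20 at 36 h and 0.66 ± 0.18 at 48 h (adjusted p = 0.00584). From 12 h to 48 h Spry2 fell by 0.82 on the log2 scale (adjusted p = 0.0075). Without 12 h replicate 2 this fall was -0.73, with an adjusted p of 0.0522.

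Spry4, another Sprouty inhibitor, lies at chr18:38586247-38601415 on the minus strand with 2 exons. Its scores spread widely within groups, with 746, 997 and 1852 at 0 h and 1587 and 1005 at 12 h. They were 1185, 1247 and 1738 after 24 h, 872, 890 and 912 after 36 h and 792, 740 and 1351 after 48 h. The groups overlapped at every time. The log2 changes from 0 h lay between -0.31 ± 0.36 at 36 h and 0.30 ± 0.32 at 24 h, and the limma adjusted p-values between 0.433 and 0.695, which does not show that Spry4 stayed level.

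Dusp6, a phosphatase that switches off ERK, was listed by a transcript of 3 exons and 2796 bases at chr10:99263231-99267488 on the plus strand. Its scores were 4026, 5036 and 5157 at 0 h and 3489 and 3339 at 12 h. They were 3151, 3218 and 4274 after 24 h, 2705, 2691 and 2608 after 36 h and 2253, 2320 and 3753 after 48 h. The later libraries lay below those of 0 h except at 24 h, where replicate 3 reached into their range. The log2 change was -0.46 ± 0.21 at 12 h (limma adjusted p = 0.076), -0.42 ± 0.19 at 24 h (0.0632), -0.83 ± 0.21 at 36 h (0.0041) and -0.80 ± 0.19 at 48 h (0.00216). Without 0 h replicate 1 the earlier times passed the test as well, with -0.58 at 12 h (0.0469) and -0.54 at 24 h (0.0382), and so did 24 h without 24 h replicate 3 (-0.56, 0.0259).

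Etv4 and Etv5 are ETS transcription factors of one subfamily whose genes respond to FGF. Etv4 has 13 exons at chr11:101769747-101785371 and Etv5 has 13 exons at chr16:22381309-22439719, both on the minus strand. The Etv4 scores were 965, 1310 and 986 at 0 h and 1061 and 1054 at 12 h. They were 1184, 1658 and 1580 after 24 h, 997, 991 and 1285 after 36 h and 994, 962 and 1263 after 48 h. These groups overlapped at every time. The log2 change of Etv4 was 0.44 ± 0.17 at 24 h, with a limma adjusted p of 0.0362. The call was lost without 0 h replicate 1 (adjusted p = 0.115), 0 h replicate 3 (0.107), 24 h replicate 2 (0.133) or 24 h replicate 3 (0.106), and without replicates 1 and 3 of 0 h together (0.15, 0.59). At 48 h the change was -0.02 ± 0.17 (adjusted p = 0.941).

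Etv5 fell over the course of culture. Its scores were 1313, 1363 and 1644 at 0 h and 1191 and 1019 at 12 h. They were 792, 801 and 805 after 24 h, 564, 575 and 455 after 36 h and 459, 463 and 754 after 48 h. Every cultured library was below those of 0 h. The log2 change was -0.38 ± 0.20 at 12 h (limma adjusted p = 0.124), -0.84 ± 0.18 at 24 h (0.00128), -1.49 ± 0.20 at 36 h (4.17e-05) and -1.40 ± 0.18 at 48 h (2.25e-05). Between 12 h and 48 h Etv5 fell by 1.02 on the log2 scale (0.00211).

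**Figure D2:**
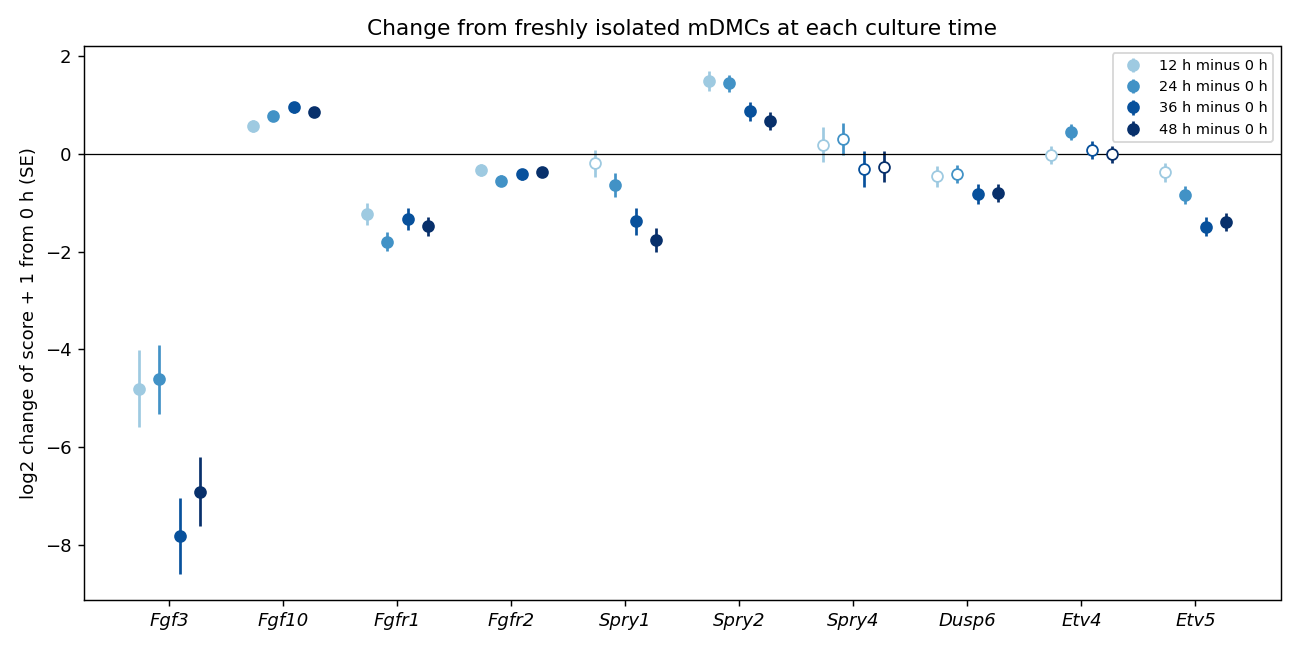
Log2 change of score + 1 from 0 h (y axis) for each gene at 12, 24, 36 and 48 h, with bars of 1 standard error. Filled points passed the limma test and open points did not. Fgf3 lies far below the others, and Fgf10 and Spry2 are the 2 genes above 0 and called at all 4 times.

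Over the set, 3 genes were lower and 2 higher at 12 h and 5 were lower and 3 higher at 24 h. At 36 h as at 48 h, 6 were lower and 2 higher. Change was common among all transcripts tested: 27.5% were lower at 12 h and 28.7% higher. The shares lower and higher were 31.1% and 34.1% for 24 h, 31.4% and 33.5% for 36 h, and 33.5% and 36.5% for 48 h. At each of the 4 times the share of the 10 genes that were lower was above that of all transcripts and the share higher below it, though at 12 h both differences came to less than 1 gene, in a set that was not drawn at random. By an unadjusted p below 0.05 and a fold above 2, 2 genes were lower and 1 higher at 12 h, against 12.1% and 12.2% of all transcripts, and 2 and 1 at 24 h, against 14.2% and 13.9%. At 36 h 4 were lower and 0 higher by this rule, against 15.7% and 15.5%. The median log2 change of the 10 genes was -0.27, -0.49, -0.63 and -0.59 at the 4 times, and that of all transcripts 0.02, 0.03, 0.02 and 0.03. The 4 comparisons share the libraries of 0 h. At 48 h the 6 genes called lower lay wholly below the range of 0 h and the 2 called higher wholly above it. The share of all transcripts that did so was not taken.

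Within culture, no member passed the limma test between 12 h and 24 h, where 6.47% of all transcripts were called. An unadjusted p below 0.05 was found there for 3 members and for 2775 of the 12079 transcripts tested. Between 24 h and 36 h 9.11% of transcripts were called and 1 member, Fgf3 (adjusted p = 0.0305). Its scores there were between 0 and 23, and the call was lost without 24 h replicate 2 (adjusted p = 0.0802), 24 h replicate 3 (0.106), the joined 36 h replicates 1 and 2 (0.117) or 36 h replicate 3 (0.175). Same-numbered libraries of these times deviated together (r = 0.127 to 0.165), and with the replicate number as a block and 36 h replicates 1 and 2 kept apart 3 members were called lower, Fgf3 (adjusted p = 0.0128), Spry2 (-0.60, 0.0058) and Etv5 (-0.60, 0.033). Keeping the replicates apart without the block also gave 3. The shares of all transcripts called in these other fits were not taken, so their counts cannot be set against the 9.11%. Between 36 h and 48 h limma called 0 transcripts, a share of 0%, while 1107 transcripts and 0 members had an unadjusted p below 0.05. Between 12 h and 48 h 39.4% of transcripts were called and 3 members, Spry1, Spry2 and Etv5, all lower at 48 h. Without 48 h replicate 3, the highest library of its group for Fgf3, Spry1, Spry2, Spry4, Dusp6, Etv4 and Etv5, the number was 5, with Fgf3 (adjusted p = 0.041) and Dusp6 (-0.58, 0.0175) added. The share of all transcripts called without that library was not taken.

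The contrasts within families are given as a description, with no test, since the pairs were chosen after the values had been seen. For each pair of related genes the log2 ratio of scores was taken within a library. The level of a ratio depends on the transcripts listed and carries no meaning here, and whether transcript use within a gene changed in culture was not tested. Spry2 over Spry1 was -1.13 ± 0.28 (SD, n = 3) at 0 h and 1.01 ± 0.34 (SD, n = 10) in culture. Its libraries were at -0.81, -1.32 and -1.26 at 0 h and between 0.39 and 1.42 in culture, so the ranges did not overlap. The mean of Spry2 over Spry4 differed by 1.12 between culture and 0 h, and that of Fgfr1 over Fgfr2 by -1.07. Fgf10 over Fgf3 differed by 6.77, a size set by scores near 0. Etv4 over Etv5 was -0.41 ± 0.34 (SD, n = 3) at 0 h and 0.77 ± 0.50 (SD, n = 10) in culture, and its libraries at 12 h still overlapped those of 0 h. Spry4 over Spry1 differed by 1.02.

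**Figure D3:**
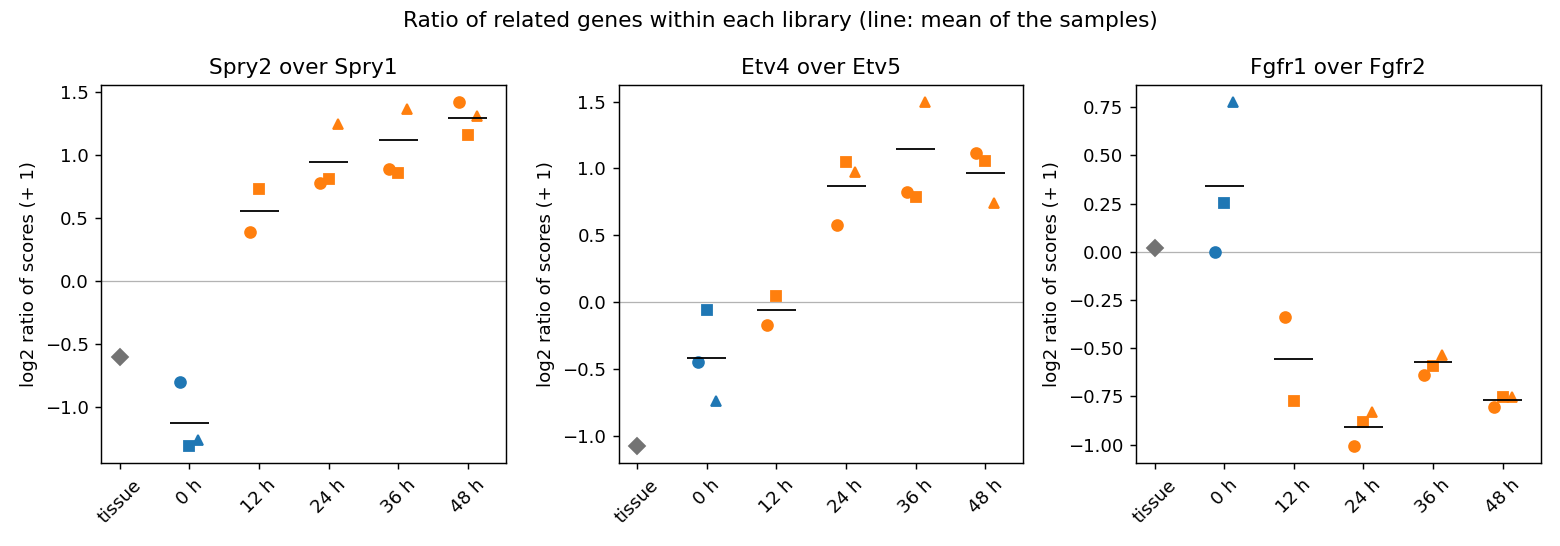
Log2 ratio of the scores of 2 related genes within each library (y axis) for Spry2 over Spry1, Etv4 over Etv5 and Fgfr1 over Fgfr2, with tissue in grey, 0 h in blue, culture in orange and a line at the mean of the samples. Spry2 over Spry1 lies between -1.32 and -0.81 at 0 h and between 0.39 and 1.42 in culture.

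The single tissue library gives a value with no replicate check. It lay below the range of freshly isolated mDMCs for Fgf3, Fgf10, Fgfr1, Dusp6, Etv4 and Etv5 and within it for Fgfr2, Spry1 and Spry4. Spry2 lay above it, at 1007 against 611 to 906. The share of all transcripts outside that range was not taken, so these places are no result about FGF genes as a set. The widest gaps were those of Fgf3, at 77 against 197 to 519, and Etv4, at 505 against 965 to 1310, while Fgf10 at 562 and Fgfr1 at 3811 were just under the lowest library of 0 h. The epithelial marker sum of the tissue was 8190.

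Sequence upstream of the start was looked at for genes whose feedback role is the same but whose course differed. Promoter entries from RefSeq (GRCm38.p6) were matched for 7 of the 10 genes, in 8 windows, and the 250 bases before the start were searched on both strands for the ETS sites CCGGAAG and CAGGAAG, the AP-1 site TGANTCA and the CRE site TGACGTCA. These were found in 6.91%, 10.8%, 6.75% and 1.55% of all 32851 windows. The single match in the set was CAGGAAG in the Fgfr2 window, 209 bases before the start. For 3 genes the window ends at the start of the transcript in the expression table, and their sequences are given 5′ to 3′ with the ETS core GGAA, or TTCC where it lies on the other strand, in capitals. The core was chosen after the search for the longer sites. Spry1 (chr3:37639697-37639946, plus strand) fell, Spry2 (chr14:105896820-105897069, minus strand) rose and Dusp6 (chr10:99262981-99263230, plus strand) fell.
Spry1: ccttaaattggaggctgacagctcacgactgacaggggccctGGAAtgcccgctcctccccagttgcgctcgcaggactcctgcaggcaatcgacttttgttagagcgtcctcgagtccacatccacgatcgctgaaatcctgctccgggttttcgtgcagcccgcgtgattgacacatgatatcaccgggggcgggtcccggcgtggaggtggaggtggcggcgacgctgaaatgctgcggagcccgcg
Spry2: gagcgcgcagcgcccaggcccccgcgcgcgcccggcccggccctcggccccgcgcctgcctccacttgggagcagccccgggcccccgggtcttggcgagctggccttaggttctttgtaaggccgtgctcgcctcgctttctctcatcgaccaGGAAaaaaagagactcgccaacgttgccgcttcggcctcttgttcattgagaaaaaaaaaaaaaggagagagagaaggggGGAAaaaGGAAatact
Dusp6: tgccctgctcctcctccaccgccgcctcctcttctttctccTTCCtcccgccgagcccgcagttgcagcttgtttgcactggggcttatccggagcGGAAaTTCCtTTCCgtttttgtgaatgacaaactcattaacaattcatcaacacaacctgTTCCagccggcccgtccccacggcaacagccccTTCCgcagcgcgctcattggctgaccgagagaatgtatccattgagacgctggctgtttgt
The core was present 1 time in Spry1, 3 times in Spry2 and 6 times in Dusp6, against a median of 3 and quartiles of 2 and 4 over all windows, of which 93.4% hold it. The share of G and C was 62.4% in Spry1, 62.4% in Spry2 and 56.4% in Dusp6, and the median of all windows was 52.4%. A match describes these letters and is no evidence of binding.

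The other genes of the pathway were grouped by role. Of 113 listed, 84 had a row and were tested, and at 48 h 34 were lower, 24 higher and 26 not called. The shares of all transcripts by this rule were 33.5% lower and 36.5% higher. With an unadjusted p below 0.05 and a fold above 2 as the rule, 18 of the 84 were lower and 16 higher, and of all transcripts 15.9% were lower and 16.2% higher.

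Among the other ligands, 5 of 20 had a row, of which 2 were lower and 2 higher at 48 h. Fgf7, a mesenchymal ligand of the epithelial Fgfr2 form and close relative of Fgf10, was at 158, 210 and 203 at 0 h, 2258 and 2742 after 12 h and 3641, 1862 and 3304 after 48 h. This 14.9-fold rise (log2 change 3.89 ± 0.23, limma adjusted p = 3.9e-08) was the widest in the list. Fgf16, a secreted ligand with low scores of 12 to 21 at 0 h and 38 to 50 at 48 h, rose by 1.55 on the log2 scale (adjusted p = 0.0113). Without replicates 1 and 3 at 0 h together its change was 1.74 (0.0577). Fgf12 (-0.93, 0.0123) and Fgf14 (-2.31, 2.23e-05) fell, and Fgf13 changed by -0.10 (0.448). These last 3 are intracellular relatives that do not act through FGF receptors. The call of Fgf12 was lost without 48 h replicate 3 (-0.78, 0.052) and without replicates 1 and 3 at 0 h together (-0.87, 0.119).

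Among receptors, coreceptors and surface partners, 12 of 18 had a row, and 5 were lower and 3 higher at 48 h. Fgfr3, the third receptor in the table, was at 1033, 849 and 821 at 0 h, 805 and 898 after 12 h and 218, 210 and 200 after 48 h. It fell by 2.09 on the log2 scale (limma adjusted p = 5.87e-08), with 12 h scores still close to those of 0 h. Fgfrl1, a receptor without a kinase domain, was at 531, 520 and 536 at 0 h, 955 and 947 after 12 h and 385, 584 and 500 after 48 h (log2 change at 48 h -0.13, adjusted p = 0.38). The glypicans Gpc3 (-2.32, adjusted p = 4.07e-06) and Gpc6 (-1.83, 0.000421), heparan sulphate carriers of the cell surface, fell, while the syndecan Sdc4 (1.24, 6.07e-05), another such carrier, rose. Flrt2, a membrane protein that binds FGF receptors, rose by 1.12 (0.000326).

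Of the enzymes of heparan sulphate, 13 of 16 had a row, with 5 lower and 2 higher. Sulf1, which removes sulphate groups from the chains, rose by 1.41 on the log2 scale (limma adjusted p = 0.00311), and Hs3st1, a sulfotransferase, by 1.40 (2.24e-05). The sulfotransferases Hs6st1 (-0.66, 0.000868) and Ndst1 (-0.63, 0.000188) fell.

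Of the adaptors and kinases between receptor and ERK, 22 of 25 had a row, with 7 lower and 9 higher. The docking protein Gab1 fell from 2090, 2040 and 4788 at 0 h to 472, 424 and 397 at 48 h (log2 change -2.67 ± 0.28, limma adjusted p = 4.1e-06). The scaffold Ksr1 (-2.35, 3.51e-07) and the phospholipase Plcg1 (-1.44, 1.1e-07) fell as well. Hras, a Ras protein, rose by 1.43 (1.1e-07).

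Of the other feedback inhibitors, 15 of 16 had a row, with 5 lower and 5 higher. Dusp4, a nuclear phosphatase of MAP kinases, was at 189, 387 and 451 at 0 h, 1256 and 1296 after 12 h and 1387, 1506 and 3077 after 48 h, a rise of 2.53 on the log2 scale (limma adjusted p = 3.23e-05). Spred3, a relative of the Sprouty genes, rose by 1.77 (0.000117). Il17rd, also called Sef, an inhibitor of FGF receptor signalling, fell by 1.80 (1.73e-06). Dusp2, a nuclear phosphatase, was at 39, 130 and 247 at 0 h and at 13, 32 and 52 at 48 h, with groups that overlapped. Its log2 change of -1.91 (adjusted p = 0.0222) lost the call without 0 h replicate 2 (-1.78, adjusted p = 0.0639), 0 h replicate 3 (-1.32, 0.1) or 48 h replicate 1 (-1.38, 0.0974). The inhibitors had no common direction.

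Of the other transcription factors that respond to ERK, 17 of 18 had a row, with 10 lower and 3 higher. Fosl1, an AP-1 subunit, was at 10, 11 and 18 at 0 h, 701 and 416 after 12 h and 375, 335 and 651 after 48 h (a rise of 32.0-fold, limma adjusted p = 7.77e-08). Fos (-5.61, 2.35e-06), Fosb (-4.62, 1.52e-06) and Egr1 (-2.80, 7.96e-05), immediate-early genes, fell from levels at 0 h that were highest in replicate 3. The 3 Fos scores at 0 h differed by up to 7.70-fold.

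**Figure D4:**
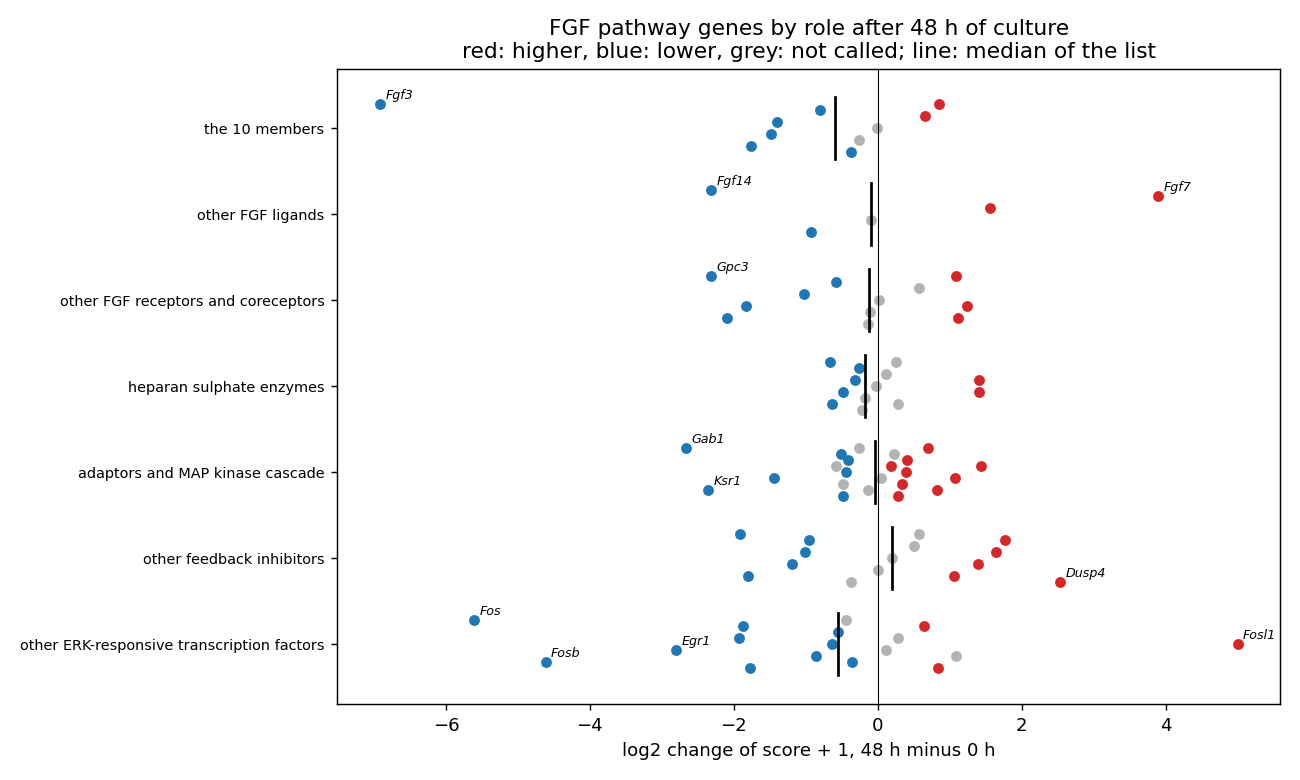
Log2 change of score + 1 from 0 h to 48 h (x axis) for the 10 genes and for the other genes of the pathway by role (y axis), 1 point a gene. Red points were higher, blue points lower and grey points not called in limma, and the black line marks the median of each list. Every list holds genes on both sides of 0.

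The genes whose course was most like that of each member, by Pearson's r of log2(score + 1) over the 13 samples, are given as a description. The samples share their time points, and r was not taken apart by time. Fgf3 was most like Hmgn2 and Trim28 (r = 0.98 for both), and Fgf10 like Gdpd5 and Zfp53 (0.98 for both). Fgfr1 was most like Casp9 and Neo1 (0.98 for both), and Fgfr2 like Evi5 (0.94) and Slc25a51 (0.93). Spry1 was most like Utp14b (0.98) and Adgrb3 (0.97), Spry2 like Larp4 and Pard6b (0.96 for both) and Spry4 like Npat (0.91) and Nup153 (0.88). Etv4 was most like Gm26876 (0.84) and Fbxl14 (0.82), and Etv5 like Sox12 and Fzd3 (0.97 for both). Dusp6 was most like Pcdh20 (0.96) and Sostdc1 (0.94), an inhibitor of BMP and Wnt signalling in the tooth germ, with means of 2685 at 0 h and 278 at 48 h. Among the 10 genes themselves, Spry1 and Etv5 (r = 0.93), Fgfr1 and Fgfr2 (r = 0.90) and Dusp6 and Etv5 (r = 0.89) were most alike, while Spry1 and Spry2 had an r of 0.00 and Etv4 and Etv5 of -0.02.

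Several marker sums of other cells differed between 0 h and culture. The summed score of 9 endothelial markers was 10059 to 12177 at 0 h and 603 to 996 in culture, and all 9 fell at each time, with Cldn5 at 0 in 10 of 11 cultured libraries. The sum of 7 red cell markers was 97833 to 150838 at 0 h and 51 to 757 in culture. The sum of 5 macrophage markers was 1368 to 2056 and 515 to 1282. At 12 h 2 of them were lower (Ptprc and Mrc1), 2 were not called and 1 was higher, Lyz2, at 113, 192 and 126 at 0 h and 409 and 514 at 12 h (log2 change 1.71, limma adjusted p = 0.0141). The 9 epithelial markers with a row summed to 2055 to 17198 at 0 h and 91 to 2908 in culture. At 12 h the sums of 2463 and 2908 were above those of replicates 2 and 3 at 0 h. The 10 markers of dental mesenchyme were all in the table, with sums of 81321 to 97614 at 0 h and 46068 to 92417 in culture, and 8 of them were lower at 48 h. Prrx1, which was not called at 48 h, made up a large part of these sums. It was at 40667 to 50479 at 0 h and at 70675 in 24 h replicate 3, the library with the sum of 92417. The part of these cell types in the changes of the FGF genes was not tested, and fewer cells of a type and less RNA per cell cannot be told apart in such samples. From 12 h to 48 h, when Spry1, Spry2 and Etv5 fell, the epithelial sums went from 2463 to 2908 down to 370 to 1232, the macrophage sums from 1098 to 1282 down to 515 to 858 and the red cell sums from 365 to 457 down to 51 to 168, and of 9 endothelial markers 4 fell and 1, Kdr, rose.

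**Figure D5:**
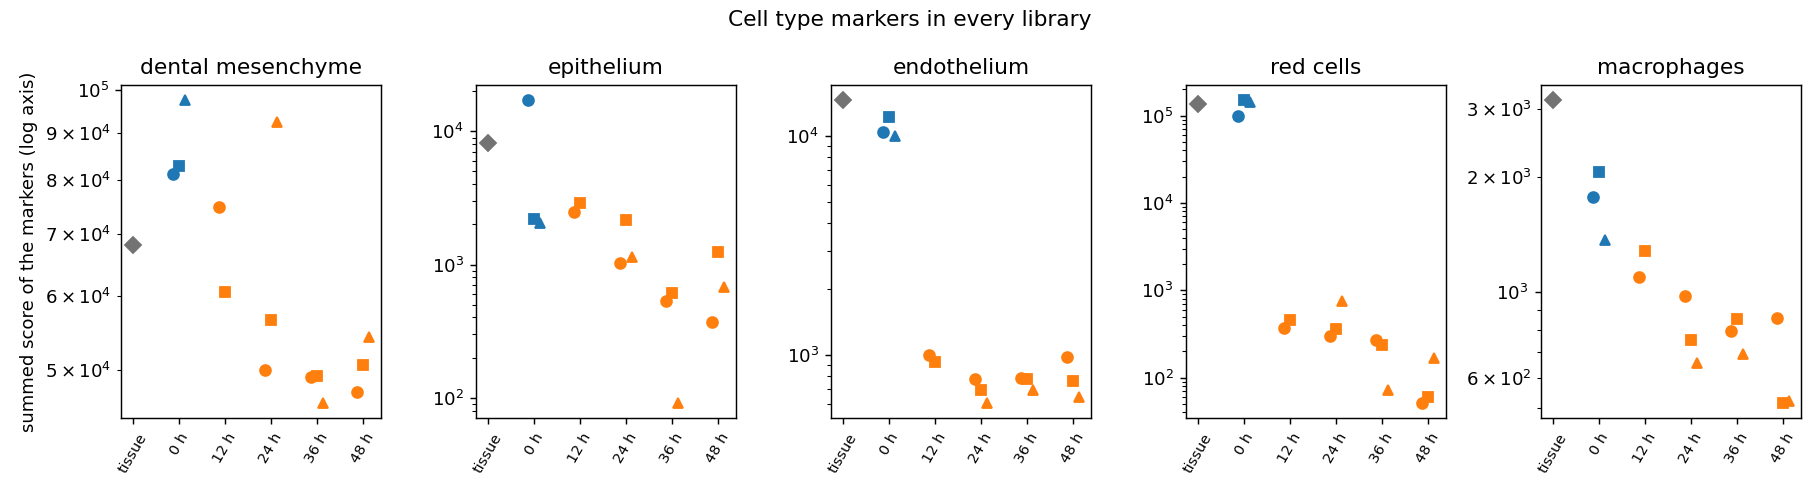
Summed score (y axis, log axis, separate scale in each panel) of the markers of 5 cell types in the tissue (grey), at 0 h (blue) and in culture (orange), 1 point a library. Endothelial sums are 10059 to 12177 at 0 h and 603 to 996 in culture, and replicate 1 at 0 h has the highest epithelial sum, 17198.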

How the data were processed

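RNA-seq of 14 mDMC libraries (0, 12, 24, 36 and 48 h) and 1 tissue library was used, with groups and replicate numbers taken from the labels. The authors prepared TruSeq libraries, removed adaptors, mapped the reads with bowtie to Ensembl transcripts of mm10 and quantified them with RSEM, version 1.1.21 in the submitters' processing notes. The authors deposited 1 table of scores, whole numbers that are labelled cpm. The deposited scores total 21357605 to 21365980 per library with a common median, so they had been brought to one distribution, and the step is not given in the sources used here. The depth is unknown, so no interval for counting error is given and changes in total RNA cannot be seen. In each library 14 to 31 transcripts have a score of 0. Of 12089 transcripts, 11973 were matched to 11960 genes of an annotation of GRCm38, and 116 were unmatched.

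Scores were taken as log2(score + 1) and fitted with limma 3.58.1 (R 4.3.3), 1 mean per time point, with eBayes and an intensity trend, over the 12079 transcripts that reached 1 ppm of a library's total in 2 or more samples. Tests were two-sided with Benjamini-Hochberg adjustment over all transcripts tested. The design had foreseen 14 separate libraries. Replicates 1 and 2 at 36 h were joined after their agreement had been seen, and the fit of 14 libraries is an alternative. Ratios were taken in Python 3.11.15, with figures from matplotlib 3.10.9. The fit was first checked on simulated scores.

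The members, lists and tests were chosen with earlier results of these data known. The text names all members, every other FGF ligand and receptor with a row, and per list up to 4 further genes with the widest change from 0 h to 48 h among those called. Genes most like a member were ranked over the samples by Pearson's r among genes with a score of at least 100 in some sample. Fgf13, Fgfrl1 and the marker genes are given whether called or not. Alternatives were pseudocounts of 0.1 and 10, no filter or a filter in all samples, scores as ppm, median-of-ratios size factors, a fit of only the compared times, no trend, the replicate number as a block, unadjusted p below 0.05 with a fold above 2, and each sample left out.

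The replicate numbers were checked for pairing. Deviations of same-numbered libraries from their group means correlated at -0.25 to 0.318 (median 0.0671), above 0.1 in 11 of 26 pairs, and those of libraries with different numbers at -0.478 to 0.478 (median -0.0376), above 0.1 in 6 of 52. All same-numbered pairs were above 0.1 between 24 h and 36 h and between 24 h and 48 h, but not between the other times, and the labels name no shared source. The blocked result is given beside the comparison of 24 h with 36 h.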

Additional observations from a re-analysis of the deposited data

How the results depend on the processing

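Of 1252 alternative values of single log2 changes, 1203 stayed on the same side of the threshold, 28 lost the call, 21 gained it and 0 called values changed sign. Changes that were not called could switch direction, as for Spry1 from 0 h to 12 h, which ran from -0.48 to 0.04. The calls at 48 h against 0 h were 6 lower and 2 higher with every single sample left out. By an unadjusted p below 0.05 and a fold above 2, 1 member each was higher at 12 h and 24 h, 0 each at 36 h and 48 h, 2 each were lower at 12 h and 24 h, and 4 each at 36 h and 48 h, while of all transcripts 12.1% to 15.9% were lower and 12.2% to 16.2% higher. From 24 h to 36 h the count of 1 became 0 with a pseudocount of 10, the filter in all samples or scores as ppm, where Fgf3 was lost or not tested, 3 in the fit of only these times, where Fgf3 was lost (adjusted p = 0.0594) and Spry1, Spry2 and Etv5 were gained, and 3 with 36 h replicates 1 and 2 kept apart, where Spry2 and Etv5 joined Fgf3; with single samples left out it was 0 to 1. Between 12 h and 48 h the count of 3 was 2 to 5 with single samples left out. With the replicate number as a block and 14 libraries the counts were 3 between 24 h and 36 h and 5 between 12 h and 48 h (Fgf3 and Dusp6 added), and Dusp6 was also called at 24 h against 0 h (adjusted p = 0.0188); same-numbered libraries of these last pairs of times did not all deviate together, and the cause was not tested. Shares of all transcripts were taken only for the main fit and, against 0 h, for the rule with a fold above 2. The counts of the other alternatives have no such share beside them. With 2 or 3 samples a group and unknown depth, small changes at one time cannot be judged.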
